A study of Mus musculus with 30 samples.

Results

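The reelin signalling genes described here are the ligand Reln, its receptors Vldlr and Lrp8, the intracellular adaptor Dab1, and the apolipoprotein gene Apoe, whose product binds the same receptors. The members were every array probe that the platform annotation assigns to 1 of these 5 genes. Of 25697 probes on the array, 23978 named 1 of 16593 genes and 10 named a member gene, and 8 of these were among the 12588 probes kept as detected (a detection p-value under 0.05 on at least 15 of the 30 arrays). Reln had 1 kept probe, Vldlr 3, Dab1 3 and Apoe 1. The annotation used here gave no probe for Lrp8, which was therefore not analysed here. The genes were chosen on the normalised log2 signals of these arrays, with the difference between resistant and responder mice already known, so that difference is given below as a description without a test.

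Reelin is a large secreted glycoprotein that guides neuronal layering in the developing forebrain. In the adult hippocampus it is made mainly by GABAergic interneurons and modulates glutamatergic synapses. It binds VLDLR and the apolipoprotein E receptor encoded by Lrp8, and their clustering leads Src-family kinases to phosphorylate DAB1, which docks on the receptors' cytoplasmic tails. Both receptors also bind apolipoprotein E, the main lipid carrier of the brain, which is made mostly by astrocytes.

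The study profiled hippocampal RNA of 30 male NMRI mice aged 12 weeks, with 1 single-colour Illumina bead array per mouse. NMRI is an outbred stock, so the mice of a group were not genetically identical. Every animal was tested for protection by phenytoin, a sodium channel blocker used against seizures, in the 6 Hz test, in which a low-frequency current is passed through the cornea to evoke a seizure. The 15 resistant mice did not respond to phenytoin and the 15 responder mice, which served as the control group, did. The labels name no untreated or unstimulated mice, so phenytoin and the test stimulation were shared by both groups. The groups were formed by the outcome of the test, so the effect of the test seizures themselves and that of drug resistance cannot be told apart. The labels do not say that animals were pooled, and replicate numbers name single mice.

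Between 12330 and 13223 probes were detected per array. Of 13 listed markers of hippocampal subfields, 9 had a probe and 7 a kept probe, and those 7 were detected on all 30 arrays. Among them were Prox1 of dentate granule cells (log2 signal 7.63 in resistant and 7.58 in responder mice), Wfs1 of CA1 pyramidal cells (10.06 and 9.89) and Grik4, enriched in CA3 (7.12 and 7.20). The markers with a probe that was not kept, Neurod6 and Tdo2, were detected on 12 and 0 arrays. Transcripts of the choroid plexus, the secretory epithelium that lies beside the hippocampus in the ventricle, varied widely between mice. The mean of its 11 kept markers ran from 5.29 to 9.56 in resistant mice and from 5.73 to 10.23 in responder mice, and 11 of 11 were lower in resistant mice with a median log2 difference of −0.87. Of 10 kept oligodendrocyte markers, 9 were higher in resistant mice, with a median difference of 0.15. Their mean ran from 10.55 to 11.44 in resistant and from 10.02 to 11.05 in responder mice. An unadjusted p under 0.05 between the groups (limma) was reached by 0 of the 11 choroid plexus markers and 1 of the 10 oligodendrocyte markers. These values are set beside the members below.

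Over all 12588 kept probes, 1 passed an adjusted p of 0.05 between the groups (0.00794%, limma with Benjamini-Hochberg adjustment), and 951 passed an unadjusted p of 0.05 (7.55%; 3.3% lower and 4.25% higher in resistant mice). These were 416 lower and 535 higher probes, but 229 lower and 924 higher when arrays were scaled to a common median. Of the 8 kept member probes, 0 passed the adjusted threshold, with adjusted p from 0.31 to 0.985. An unadjusted p under 0.05 was reached by 3 of the 8, a pair of Vldlr probes and 1 Dab1 probe, all lower in resistant mice. Since this contrast chose the genes, nothing is read from these counts. All differences below are resistant minus responder on the log2 scale. A typical kept probe had a difference of 0.05 in size (the median), a standard error of 0.07 and an SD between mice of a group of 0.20.

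Reln, the ligand, gave closely overlapping values in both groups. In resistant mice its log2 signal had a lowest value of 10.01, a median of 10.35 and a highest of 10.77. In responder mice the corresponding values were 10.00, 10.39 and 10.63. The lowest value belonged to responder replicate 9 and the highest to resistant replicate 3, and 5 of 15 resistant mice lay above the responder median. The means were 10.37 ± 0.20 and 10.36 ± 0.22 (SD, n = 15 each), a difference of 0.02 (SE 0.07). The direction was not stable. Within the mice of sample numbers 1 to 16 the difference was 0.16, within numbers 17 to 30 it was −0.15, and with the choroid plexus mean as a covariate it was −0.02.

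Reelin is also the product of Cajal-Retzius cells, early-born neurons of the outer layers, some of which persist in the adult hippocampus. Of their 8 listed markers, 3 were kept (Calb2, Cxcr4 and Ndnf). Trp73, a defining transcription factor of these cells, was detected on 1 array, and Lhx1, Lhx5, Nhlh2 and Ebf3 on 0 of 30. Of 12 listed GABAergic interneuron markers 9 were kept, and Gad2 and Lhx6 were likewise detected on 0 of 30 arrays. Absence of a cell type is therefore not read from undetected markers. The 9 kept GABAergic interneuron markers averaged 10.54 ± 0.08 in the resistant and 10.51 ± 0.09 in the responder group (SD, n = 15 each).

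Vldlr, the reelin and lipoprotein receptor, was lower on average in resistant mice on all 3 kept probes. On the brightest, ILMN_2796472, the log2 signal in resistant mice ran from 9.47 through a median of 9.71 to 9.88. In responder mice it ran from 9.51 through 9.89 to 10.05. The groups overlapped, but 0 of 15 resistant mice lay above the responder median and 8 responder mice lay above every resistant mouse. The means were 9.69 ± 0.13 and 9.85 ± 0.15 (SD, n = 15 each), a difference of −0.17 (SE 0.05), which equals 0.891 times the responder level. In a bulk sample like these whole hippocampi, fewer cells that express a gene and less RNA per cell cannot be told apart.

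The second Vldlr probe, ILMN_2515601, gave the larger difference. Resistant mice ran from 9.15 through 9.33 to 9.58, and responder mice from 9.19 through 9.58 to 9.82. Again the ranges overlapped, with 1 of 15 resistant mice above the responder median and 7 responder mice above every resistant mouse. The means were 9.34 ± 0.16 and 9.56 ± 0.18 (SD, n = 15 each), with a difference of −0.22 (SE 0.06) and a ratio of 0.858.

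The third, ILMN_1218264, gave the smallest difference of the kept Vldlr probes. Resistant mice ran from 9.15 through 9.36 to 9.69, and responder mice from 9.20 through 9.57 to 9.73. Here 2 of 15 resistant mice lay above the responder median, and 3 responder mice lay above every resistant mouse. The means were 9.40 ± 0.17 and 9.52 ± 0.19 (SD, n = 15 each), with a difference of −0.12 (SE 0.06) and a ratio of 0.920. Responder replicate 2 had the highest value on all 3 probes, and resistant replicate 6 the lowest on ILMN_1218264 and ILMN_2515601.

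Averaged over the 3 kept probes of each mouse, Vldlr averaged 9.47 ± 0.14 in the resistant group and 9.64 ± 0.17 in the responder group (SD, n = 15 each), and 1 of 15 resistant mice lay above the responder median. Of the resistant mice, 12 lay below the responder median on all 3 probes at once, and so did 6 of the responder mice. A group's own median limits how many of its mice can lie below it, so the counts are not compared. The other 2 Vldlr probes were too dim to be kept. ILMN_1230923 was detected on 9 arrays, 2 of resistant and 7 of responder mice, and its means were 4.97 ± 0.22 and 5.16 ± 0.30 (SD, n = 15 each). ILMN_2458671 was detected on 10 arrays, 5 in each group, with means of 5.02 ± 0.28 and 5.07 ± 0.25 (SD, n = 15 each). Both lay near background on most arrays, and no direction is read from them.

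**Figure D1:**
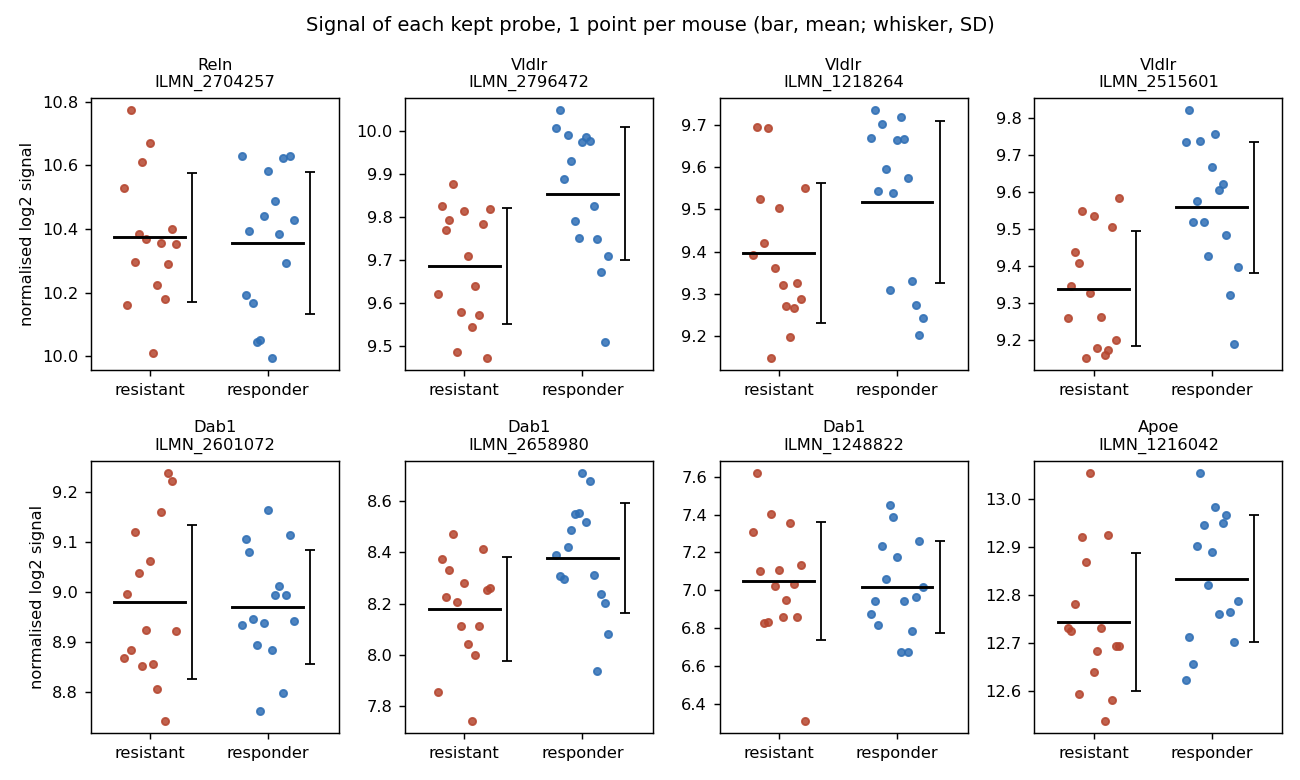
Log2 signal (vertical axis) of the 8 kept probes of Reln, Vldlr, Dab1 and Apoe, 1 panel per probe, with 1 point per mouse for the 15 resistant and 15 responder mice and the group mean with its SD. The groups overlap on every probe, and the resistant means lie lower on the 3 Vldlr probes (by 0.17, 0.12 and 0.22), on Dab1 ILMN_2658980 (by 0.20) and on Apoe (by 0.09).

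The choroid plexus and oligodendrocyte values given above differed on average between the same groups, with the spread given there. With the choroid plexus mean as a covariate, the differences of the 3 Vldlr probes were −0.14 for ILMN_2796472, −0.10 for ILMN_1218264 and −0.19 for ILMN_2515601. The part of the oligodendrocyte difference in these values was not tested. When arrays were scaled to a common median and not quantile-normalised, the same probes gave −0.13, −0.09 and −0.19. Leaving out any 1 mouse kept them between −0.19 and −0.15, between −0.14 and −0.10, and between −0.25 and −0.20. In all 12 other settings and in all 30 fits without 1 mouse, 3 of 3 kept Vldlr probes were lower in resistant mice. Several of these settings (the filters, the robust prior and the balanced blocks) leave the difference itself unchanged, so they could not alter its sign. Without background correction the same probes gave −0.15, −0.10 and −0.19. The authors' processed values equal the signals of that setting and gave identical differences, so they are not a separate check.

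**Figure D2:**
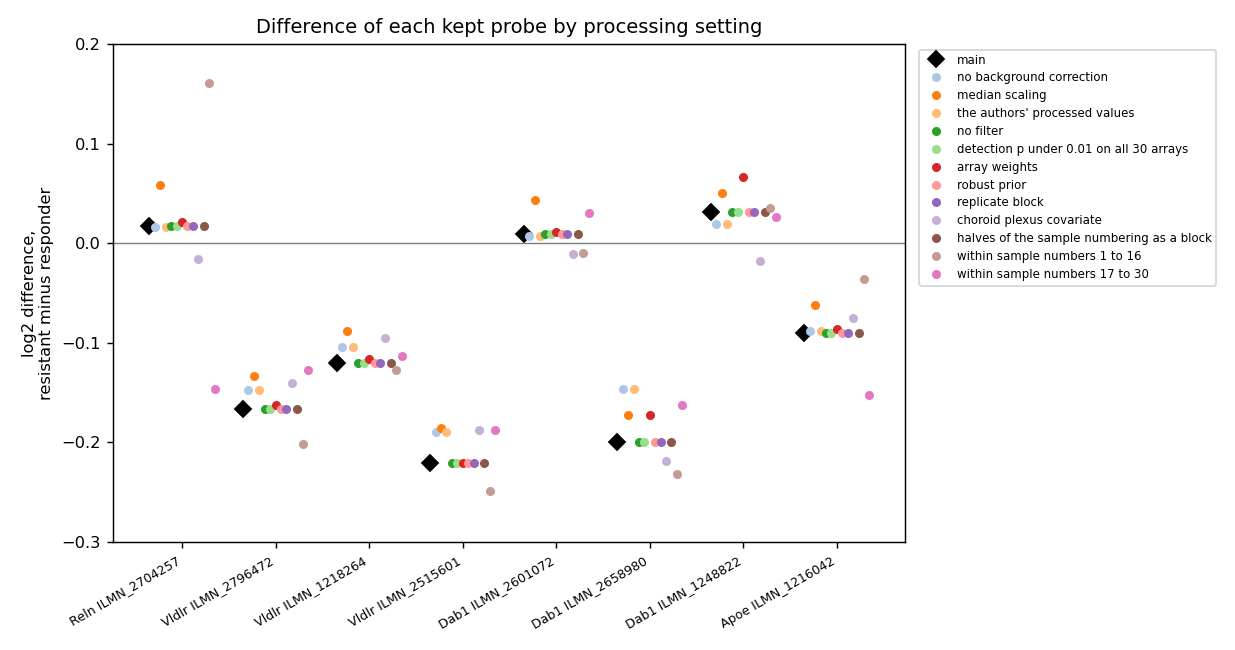
Log2 difference, resistant minus responder (vertical axis), of each kept probe (horizontal axis) in the reported fit (black diamonds) and in 12 other settings (coloured points). The Vldlr, Apoe and Dab1 ILMN_2658980 points all lie below 0, whereas Reln (from −0.15 to 0.16) and the other Dab1 probes have points on both sides of 0.

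The agreement of the Vldlr probes was then measured without the contrast between the groups, on each mouse's deviation from the mean of its own group. Each pair of probes was compared over the 30 mice by permuting mice within groups 100000 times (two-sided), with Benjamini-Hochberg adjustment over 68 pairs of probes, marker means and the sample number. All 3 pairs of kept Vldlr probes varied together. For ILMN_2796472 and ILMN_2515601, Pearson's r was 0.88 and Spearman's rho 0.85. For ILMN_2796472 and ILMN_1218264, r was 0.88 and rho 0.91, and for ILMN_1218264 and ILMN_2515601 r was 0.81 and rho 0.83. Each r and each rho had a permutation p of 1e-05, the smallest that 100000 permutations can give, and an adjusted p of 0.000227. After removal of the 2 mice farthest from the median, r was 0.85, 0.88 and 0.77 in the same order.

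The Vldlr probes moved together in both groups and in both stretches of the sample numbering. Among the 15 resistant mice r was 0.81, 0.81 and 0.74, and among the 15 responder mice 0.93, 0.92 and 0.86, in the same order of pairs. Within sample numbers 1 to 16 it was 0.85, 0.88 and 0.68, and within 17 to 30 it was 0.87, 0.85 and 0.86. For ILMN_2796472, the other kept Vldlr probes ranked 1 and 2 among all 12588 kept probes by r. For ILMN_1218264 and ILMN_2515601 they ranked 1 and 3, with Gpr135 (r = 0.83) and Wwc2 (r = 0.82, a gene named after its value was seen) respectively at rank 2. Mice with a high signal on 1 Vldlr probe were thus the mice with a high signal on the others, on deviations that hold no difference between the groups. The 3 probes were read from the same array and RNA extract of each mouse, so their shared variation includes that of the extract.

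**Figure D3:**
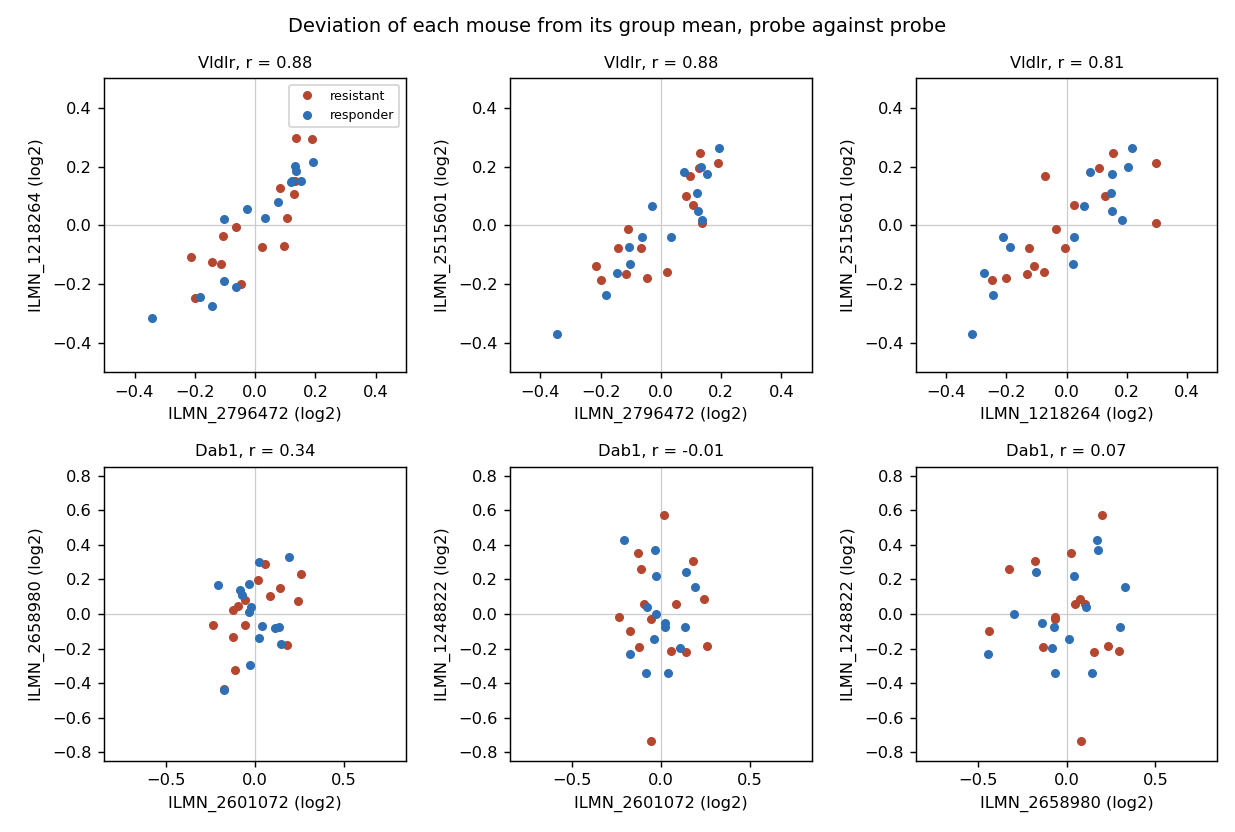
Deviation of each mouse from its group mean (log2, both axes) for pairs of kept probes of Vldlr and of Dab1, with resistant and responder mice in different colours. The Vldlr pairs lie along a line (r = 0.88, 0.88 and 0.81), and the Dab1 pairs scatter (r = 0.34, −0.01 and 0.07).

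The start regions of Vldlr and Dab1 are shown because 1 Dab1 probe, ILMN_2658980, varied with the Vldlr probes, as described below. The other kept Dab1 probes did not pass the threshold against Vldlr in the reported setting. RefSeq lists more than 1 start for each. Windows run from 250 bases before to 50 after a start, in GRCm38.p6, 5′ to 3′ on the plus strand. Capitals mark matches, on either strand, to the GC box GGGCGG, the TATA box TATAAA, the E-box CACGTG or the CAAT box CCAAT. No match of 1 motif shares letters with another in these windows. The genome build of the array's probes is not given in the sources used here, and the probes were not placed on these windows.
Vldlr, chr19:27216234-27216533: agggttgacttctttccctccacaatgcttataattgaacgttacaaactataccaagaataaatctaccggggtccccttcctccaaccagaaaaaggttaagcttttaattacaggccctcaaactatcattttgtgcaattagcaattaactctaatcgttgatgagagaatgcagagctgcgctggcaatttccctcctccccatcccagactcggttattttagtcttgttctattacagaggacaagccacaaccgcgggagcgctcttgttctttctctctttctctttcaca
Vldlr, chr19:27216770-27217069: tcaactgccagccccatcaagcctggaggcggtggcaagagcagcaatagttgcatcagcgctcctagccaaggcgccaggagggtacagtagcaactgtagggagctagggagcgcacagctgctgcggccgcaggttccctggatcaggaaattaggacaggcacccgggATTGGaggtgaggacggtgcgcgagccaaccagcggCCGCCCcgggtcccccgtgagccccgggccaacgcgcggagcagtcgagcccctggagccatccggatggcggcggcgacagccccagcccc
Dab1, chr4:103619250-103619549: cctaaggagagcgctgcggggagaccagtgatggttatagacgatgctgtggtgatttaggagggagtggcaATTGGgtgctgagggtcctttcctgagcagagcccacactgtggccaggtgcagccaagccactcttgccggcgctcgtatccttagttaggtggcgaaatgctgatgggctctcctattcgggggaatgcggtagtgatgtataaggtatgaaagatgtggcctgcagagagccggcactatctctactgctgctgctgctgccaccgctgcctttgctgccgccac
Dab1, chr4:104367288-104367587: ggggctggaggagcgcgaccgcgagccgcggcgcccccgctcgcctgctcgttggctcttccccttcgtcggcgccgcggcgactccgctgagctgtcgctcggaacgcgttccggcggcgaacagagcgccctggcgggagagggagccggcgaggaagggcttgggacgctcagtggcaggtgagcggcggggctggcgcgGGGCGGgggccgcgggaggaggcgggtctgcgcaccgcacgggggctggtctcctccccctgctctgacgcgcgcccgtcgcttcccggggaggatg

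The first Vldlr window had a GC content of 43%, 8 CpG dinucleotides and none of these letters. The second was richer, with 68% GC, 23 CpG, 1 GC box and 1 CAAT box. The first Dab1 window had 57.3% GC, 12 CpG and 1 CAAT box, and the second 77.3% GC, 46 CpG and 1 GC box. Over 32851 windows of the same length the median was 52.7% GC and 7 CpG, and 35.7% held the GC box, 37.4% the CAAT box, 13.6% the TATA box and 7.15% the E-box. These matches describe letters and say nothing of a factor's binding.

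Dab1, the adaptor phosphorylated after reelin binds, had 3 kept probes that did not give the same picture. On ILMN_2658980, resistant mice ran from 7.74 through 8.23 to 8.47 and responder mice from 7.94 through 8.39 to 8.71. Of the resistant mice 2 of 15 lay above the responder median, and 6 responder mice lay above every resistant mouse. The means were 8.18 ± 0.20 and 8.38 ± 0.21 (SD, n = 15 each), a difference of −0.20 (SE 0.07) and a ratio of 0.871. Leaving out any 1 mouse kept this difference between −0.23 and −0.17, and with the choroid plexus covariate it was −0.22.

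The brightest Dab1 probe, ILMN_2601072, which the annotation ties to another Dab1 transcript record than the other two, ran from 8.74 through 8.92 to 9.24 in resistant mice. In responder mice it ran from 8.76 through 8.95 to 9.16. Its means were 8.98 ± 0.15 and 8.97 ± 0.11 (SD, n = 15 each), a difference of 0.01 (SE 0.05), and 7 of 15 resistant mice lay above the responder median. The groups overlapped almost fully.

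The dimmest Dab1 probe, ILMN_1248822, shares its transcript record with ILMN_2658980. It ran from 6.31 through 7.03 to 7.62 in resistant mice and from 6.67 through 6.97 to 7.45 in responder mice. The lowest value was that of resistant replicate 15. Its means were 7.05 ± 0.31 and 7.02 ± 0.24 (SD, n = 15 each), a difference of 0.03 (SE 0.10). The latter 2 differences turned to −0.01 and −0.02 with the choroid plexus covariate, and each also took both signs when mice were left out in turn (−0.01 to 0.03 and −0.01 to 0.08).

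No pair of Dab1 probes co-varied past the threshold within groups. ILMN_2601072 and ILMN_2658980 had an r of 0.34 and a rho of 0.26 (permutation p = 0.0644, adjusted p = 0.183 for r). ILMN_1248822 had an r of −0.01 and 0.07 with the others (permutation p = 0.954 and 0.72). The r of 0.34 ranked 1859 among all kept probes by likeness to ILMN_2601072. Whether the Dab1 probes agree less than the Vldlr probes was not tested.

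Dab1 ILMN_2658980, the probe that was lower in resistant mice, varied with Vldlr between mice of the same group. Against the 3 Vldlr probes ILMN_2796472, ILMN_1218264 and ILMN_2515601, r was 0.56, 0.57 and 0.51 and rho 0.53, 0.54 and 0.54. The permutation p for r was 0.00142, 0.00112 and 0.00453, with adjusted p of 0.0193, 0.019 and 0.0342. After removal of the 2 mice farthest from the median r was 0.61, 0.51 and 0.55. Within sample numbers 1 to 16 r was 0.31, 0.26 and 0.23, and within 17 to 30 it was 0.60, 0.67 and 0.56, so the values of r were higher among the later numbers (this difference was not tested). With the means of these stretches removed as well as the group means, r was 0.49, 0.49 and 0.44, with adjusted p of 0.0394, 0.0394 and 0.0757. Other genes were closer to this Dab1 probe, such as Zfp91, Cnot4 and Parm1 (r = 0.87, 0.86 and 0.83, named after their values were seen). Where the Vldlr probes rank among all kept probes by likeness to it was not determined.

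The remaining Dab1 probes did not pass the threshold against Vldlr in the reported setting. Vldlr ILMN_2796472 and Dab1 ILMN_2601072 had an r of 0.16 (permutation p = 0.383, adjusted p = 0.578), which was 0.47 after removal of the 2 mice farthest from the median. With Dab1 ILMN_1248822, Vldlr ILMN_2515601 had an r of −0.46 (permutation p = 0.0106, adjusted p = 0.0554), opposite in sign to that with ILMN_2658980. With the means of sample numbers 1 to 16 and 17 to 30 removed as well, all 3 Vldlr probes passed against ILMN_1248822, with r of −0.55 for ILMN_2796472, −0.49 for ILMN_1218264 and −0.70 for ILMN_2515601 (adjusted p = 0.0218, 0.0394 and 0.00068).

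Apoe, the lipid carrier and receptor ligand, was a bright transcript. In resistant mice its log2 signal ran from 12.54 through a median of 12.72 to 13.05, and in responder mice from 12.62 through 12.82 to 13.05. The ranges shared their upper end, and 4 of 15 resistant mice lay above the responder median. The means were 12.74 ± 0.14 and 12.83 ± 0.13 (SD, n = 15 each), a difference of −0.09 (SE 0.05) and a ratio of 0.939. Within sample numbers 1 to 16 the difference was −0.04 and within 17 to 30 it was −0.15. The 10 kept astrocyte markers, from the main source of the gene's product, averaged 9.67 ± 0.11 and 9.69 ± 0.07 (SD, n = 15 each), with a median difference of −0.02.

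Among the brightest probes of the 4 genes, 1 of 6 pairs co-varied past the threshold within groups. Apoe was lower in mice with more Dab1 ILMN_2601072, with an r of −0.55 (permutation p = 0.00224, adjusted p = 0.0218) and a rho of −0.58 (adjusted p = 0.0151). It held after removal of the 2 mice farthest from the median (r = −0.53), among resistant (−0.57) and responder mice (−0.53), and within sample numbers 1 to 16 (−0.44) and 17 to 30 (−0.71). With median scaling, however, r was −0.12 (adjusted p = 0.656). No pair with Reln passed, and its r was −0.18 with Vldlr ILMN_2796472, 0.19 with Dab1 ILMN_2601072 and −0.21 with Apoe (adjusted p = 0.557, 0.541 and 0.482). Vldlr and Apoe had an r of −0.09 (adjusted p = 0.799).

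Members were also set against the means of 4 marker lists, and 2 of these 32 pairs passed the threshold in the reported setting. Vldlr ILMN_2796472 was lower in mice with more oligodendrocyte signal (r = −0.52, permutation p = 0.00405, adjusted p = 0.0342, and rho −0.45 with adjusted p = 0.0787). The same relation had an r of −0.40 and −0.42 for the other kept Vldlr probes (adjusted p = 0.142 and 0.109). For the Dab1 probes ILMN_2658980, ILMN_2601072 and ILMN_1248822 it was −0.48, −0.42 and 0.01 (adjusted p = 0.0505, 0.0826 and 0.968). In other settings the adjusted p of ILMN_2658980 fell as low as 0.0362 and that of ILMN_2601072 as low as 0.0232. The part of oligodendrocyte signal in the co-variation of Vldlr with Dab1 was not tested. With the means of sample numbers 1 to 16 and 17 to 30 removed as well, the r of −0.52 became −0.46 (adjusted p = 0.0596), and with the replicate block it was −0.53 (adjusted p = 0.201). Dab1 ILMN_1248822 was higher in mice with more interneuron signal (r = 0.50, permutation p = 0.0059, adjusted p = 0.0365, and rho 0.58). That relation no longer passed in 4 of 6 other settings: without background correction and in the authors' processed values (r = 0.41 and adjusted p = 0.0900 in both), with the choroid plexus mean removed (r = 0.39, adjusted p = 0.165) and with the replicate block (r = 0.58, adjusted p = 0.147). The authors' processed values repeat the setting without background correction, so they are not a separate check. The relation of interneuron signal to the other members depended on the setting. For the Vldlr probes ILMN_2796472, ILMN_1218264 and ILMN_2515601, r was −0.38, −0.39 and −0.42 (adjusted p = 0.146, 0.142 and 0.109). It was −0.49, −0.53 and −0.52 with the means of the 2 stretches of the numbering removed (adjusted p = 0.0394, 0.038 and 0.0394), and 0.16, 0.08 and 0.04 with median scaling. For Reln and Dab1 ILMN_2601072, r was 0.32 and 0.22 (adjusted p = 0.231 and 0.482), and with median scaling 0.53 and 0.62 (adjusted p = 0.0243 and 0.00465). Choroid plexus signal and the 3 Vldlr probes had r of 0.36, 0.28 and 0.39, which did not pass.

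The labels number the samples from 1 to 30, alternating between the groups, and do not say what the number stands for. Vldlr was lower in samples of higher number, with an r of −0.50 for ILMN_2796472 (permutation p = 0.00584, adjusted p = 0.0365, rho −0.52) and of −0.55 for ILMN_1218264 (permutation p = 0.00191, adjusted p = 0.0216, rho −0.53). The r of ILMN_2515601 was −0.37 (adjusted p = 0.16). After removal of the 2 mice farthest from the median, r was −0.39, −0.46 and −0.23. Among responder mice r was −0.73, −0.68 and −0.67, and among resistant mice −0.24, −0.41 and −0.03 (whether the groups differ was not tested). With the means of numbers 1 to 16 and 17 to 30 removed as well, r was −0.35 for ILMN_2796472 and −0.36 for ILMN_1218264 (adjusted p = 0.181 and 0.173), so neither passed within these stretches. Within sample numbers 1 to 16 the differences between the groups were −0.20, −0.13 and −0.25 for ILMN_2796472, ILMN_1218264 and ILMN_2515601, and within 17 to 30 they were −0.13, −0.11 and −0.19. Resistant mice were mostly not lower among the last numbers, a stretch picked after the values were seen. On ILMN_2796472, resistant samples 25, 27 and 29 gave 9.78, 9.47 and 9.82, and responder samples 26, 28 and 30 gave 9.67, 9.51 and 9.71. In the same order ILMN_1218264 gave 9.33, 9.29 and 9.55 beside 9.27, 9.20 and 9.24. ILMN_2515601 gave 9.51, 9.20 and 9.58 beside 9.32, 9.19 and 9.40.

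**Figure D4:**
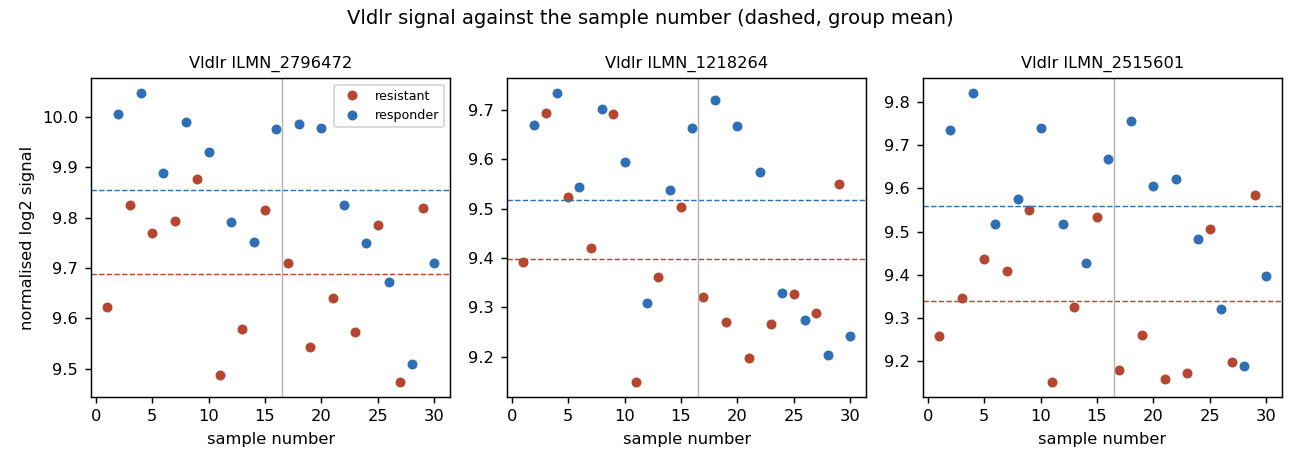
Log2 signal of the kept Vldlr probes (vertical axis) against the sample number in the labels, from 1 to 30 (horizontal axis), with 1 point per mouse. Responder points decline along the numbering (r = −0.73 for ILMN_2796472), and resistant points lie lower on average both below and above number 16. Among the last numbers, from 25 to 30, resistant points mostly do not lie lower.

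The genes most like each member over the 30 mice, after removing group means, were found among all kept probes of other named genes. For Vldlr ILMN_2796472 they were Asap2 (r = 0.87), Gpr135 (0.86) and Pde1a (0.86). For Reln they were Fzd10 (0.72), Pacsin1 (0.70) and Septin6 (0.70). For Dab1 ILMN_2601072 they were Parp1 (0.82), Fkbp5 (0.79) and Cpne4 (0.77), and for Apoe Nthl1 (0.70), Cox7c (0.68) and Gnptg (0.67). These are descriptions over arrays that share their normalisation. The annotated neighbours of Vldlr that had a probe, Gm815 and Kcnv2, were detected on 0 of 30 arrays.

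The wider pathway was described through 6 lists with 73 kept genes in all, each gene by its brightest kept probe. Of the 73, 36 were higher and 37 lower in resistant mice, 0 passed the adjusted threshold, and 2 higher and 6 lower genes reached an unadjusted p under 0.05. That is 11.0% of the lists' genes, beside 7.55% of all kept probes. The median difference over the lists' genes was 0.00, beside 0.01 over all probes. None of the genes below passed after adjustment (adjusted p from 0.588 to 0.884), so their values are given without a call.

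Of 9 kept genes for proteases and extracellular partners of reelin, 5 were lower and 4 higher, and 3 lower ones reached an unadjusted p under 0.05. Efnb1, which encodes the ligand ephrin-B1, was 7.15 ± 0.18 in the resistant and 7.34 ± 0.22 in the responder group (SD, n = 15 each; difference −0.19, limma p = 0.0177, adjusted p = 0.588). Clu, which encodes clusterin, an apolipoprotein that also binds VLDLR, was 13.86 ± 0.09 and 13.95 ± 0.12 (difference −0.09, limma p = 0.0185, adjusted p = 0.592). Itga3, an integrin subunit reported to bind reelin, differed by −0.14 (limma p = 0.0464).

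Downstream of Dab1, 31 kept genes of cytoplasmic signalling had a median difference of 0.01, with 17 higher and 14 lower. The genes that reached an unadjusted p under 0.05 were both higher in resistant mice. Ndel1, a partner of the LIS1 and dynein complex, differed by 0.08 (limma p = 0.0393), and Rapgef1, an exchange factor for the GTPase Rap1, by 0.08 (limma p = 0.0488). The GTPase gene Rac1 came next with −0.10 (limma p = 0.0794).

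Of 10 kept genes for receptor trafficking and turnover, 6 were higher and 4 lower. Psen2, a catalytic subunit of gamma-secretase, differed by −0.11 (limma p = 0.0471). Dab2, a clathrin adaptor that binds the tails of LDL receptors, was 7.05 ± 0.37 and 7.34 ± 0.53 (difference −0.30, limma p = 0.0667), and 1 of 15 resistant mice lay above its responder median. Ranbp9, a scaffold protein gene, differed by 0.08.

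The other LDL receptor family members were evenly split, with 4 of 8 kept genes higher and 4 lower. Lrp10 was 10.97 ± 0.14 and 11.11 ± 0.21 (SD, n = 15 each; difference −0.14, limma p = 0.0264). Sorl1, a sorting receptor, differed by 0.11 and Lrp1, an endocytic receptor for Apoe, by 0.08, neither past an unadjusted p of 0.05. The differences of this family thus ran in both directions.

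Of 10 kept apolipoprotein and lipid efflux genes, 6 were lower and 4 higher, and Clu and Pltp reached an unadjusted p under 0.05. Pltp, the phospholipid transfer protein, was 9.90 ± 0.32 and 10.13 ± 0.35 (SD, n = 15 each; difference −0.23, limma p = 0.0466). Nr1h3, the sterol-sensing receptor LXR alpha, was 5.67 ± 0.50 and 5.39 ± 0.33 (difference 0.29, limma p = 0.0631) and was detected on 24 arrays. Of 6 kept synaptic target genes, 5 were lower and 0 reached an unadjusted p under 0.05. These included the activity-induced gene Arc (difference −0.22), the AMPA receptor subunit Gria2 (−0.11) and the kinase Camk2a (−0.05).

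**Figure D5:**
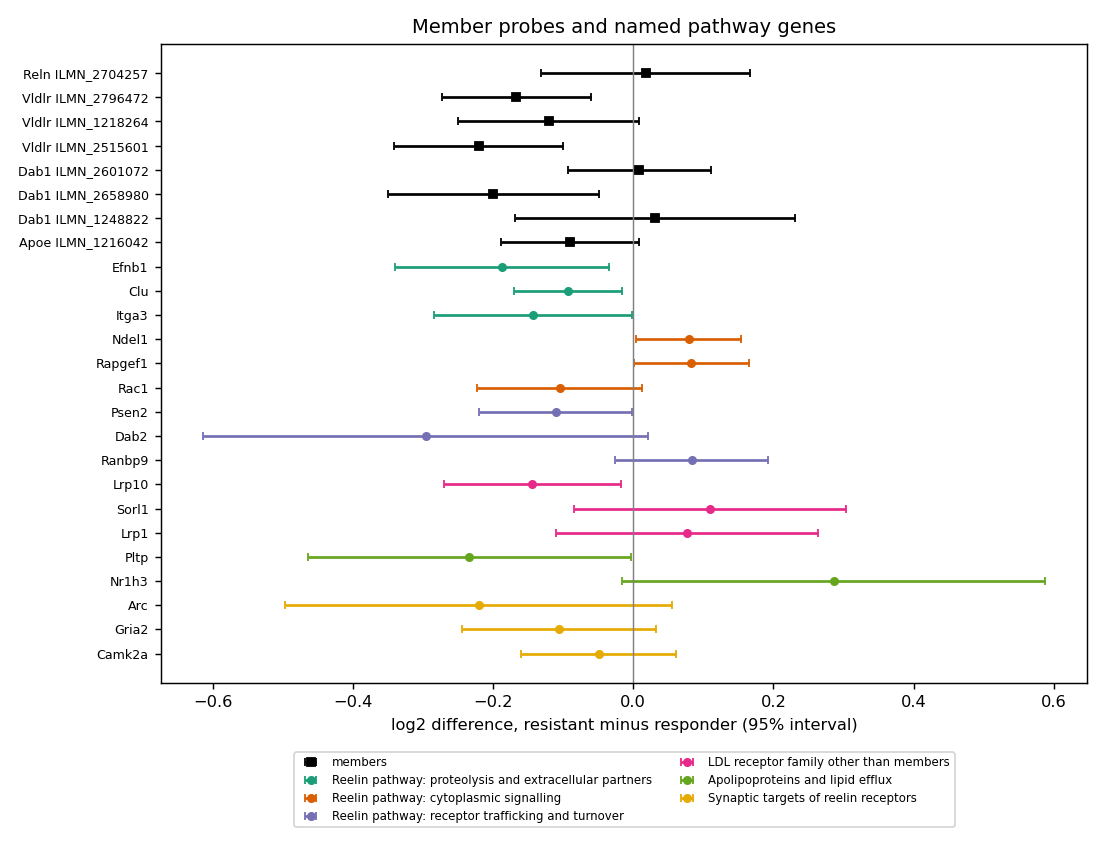
Log2 difference, resistant minus responder (horizontal axis), with its 95% interval for the named genes of the 6 pathway lists and the kept member probes. The Vldlr and Dab1 ILMN_2658980 points lie between −0.22 and −0.12, and the named pathway genes lie on both sides of 0, from −0.30 for Dab2 to 0.29 for Nr1h3.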

How the data were processed

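Per the labels' protocols, RNA of frozen hippocampi was purified on columns and hybridised as labelled cRNA. The authors deposited log2 signals that were not normalised, with a detection p-value per probe and array, and processed log2 values, which equal quantile-normalised deposited signals. The submitters' processing notes name lumi, without a version. Here signals were background-corrected and quantile-normalised with neqc (limma 3.58.1 in R 4.3.3, offset 16). Probes with a detection p-value under 0.05 on at least 15 arrays were kept, and all 12588 were fitted with lmFit and eBayes (intensity trend), with Benjamini-Hochberg adjustment. The procedure was tested on simulated data, in which the change added for the fit was larger than any member difference. That test does not say whether differences of the members' size would be called. Precision is limited by the 15 arrays per group, and no batch is labelled.

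The annotation gave 1 gene for 23978 probes and none for 1719. Members and gene lists were chosen with earlier results of these data known. Named pathway genes were those of each list past an unadjusted p of 0.05 or, where these were fewer than 3, the 3 smallest p. Like genes were the 3 of highest r to each member's brightest probe, and the nearest neighbours of Vldlr were added. Co-variation was planned for the brightest probes and for the Vldlr probes; pairs of the other kept probes were added after the data were seen. Labels do not say whether mice were littermates.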

Additional observations from a re-analysis of the deposited data

How the results depend on the processing

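All 3 kept Vldlr probes were lower in resistant mice under the 12 alternatives tried and in the 30 fits without 1 mouse, and 0 of 8 member probes passed an adjusted p of 0.05 (limma) in any of them. For several alternatives the sign was fixed, as a filter, a prior or a balanced block leaves the difference unchanged. The authors' processed values repeat the setting without background correction. Counts over all probes moved more. The single probe past an adjusted p of 0.05, lower in resistant mice, became 1 higher probe with median scaling, 0 with no filter, within sample numbers 1 to 16, with the replicate block and with choroid plexus signal as a covariate, 2 with the 2 stretches of the numbering as a block, 3, all higher, within 17 to 30, and 0 to 2 without 1 mouse. The 951 probes past an unadjusted p of 0.05 became 1153 with median scaling (924 higher, 229 lower), 1485 with no filter, where more probes were tested, and 775 to 1097 without 1 mouse. The 3 member probes past an unadjusted p of 0.05 became 5 with the replicate block, 1 within sample numbers 17 to 30, and 3 to 5 without 1 mouse (5 without resistant replicate 5). The 8 pathway genes past it became 3 with median scaling, 3 with choroid plexus signal as a covariate, 5 with no filter, 2 within sample numbers 1 to 16 and 5 within 17 to 30, and 2 (without responder replicate 9) to 9 without 1 mouse. Within-group r was 0.49 between Vldlr ILMN_2796472 and Dab1 ILMN_2601072 with median scaling (adjusted p = 0.0377), and between Dab1 ILMN_2601072 and Apoe it was −0.12 with median scaling and −0.50 with the replicate block (adjusted p = 0.202). With the replicate block, Dab1 ILMN_2658980 had an r of 0.80, 0.79 and 0.52 with Vldlr ILMN_2796472, ILMN_1218264 and ILMN_2515601, the last no longer past the threshold (adjusted p = 0.202). The causes of these changes were not tested.

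Whether replicate numbers pair the mice was not tested. Over 15 pairs of equal number the deviations correlated from −0.316 to 0.28 (median 0.114), 8 of 15 over 0.1. Of the resistant mice, 4 of 15 correlated best with their own number, and this count was not set against chance. Dim Vldlr probes near background carry little information.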
